A study of Mus musculus with 8 samples.

Results

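Tcf7, Lef1, Satb1, Foxp1, Foxo1, Id3, Klf2, Il7r and Il6ra, 9 genes linked to the naive or resting state of T cells, were followed across 4 groups of sorted T cells by ATAC-seq, which tags accessible DNA with a transposase. Taken here are all regions of the deposited count table that carry 1 of these gene symbols, each distinct position once: 73 of 46624 regions. Of these, 40 are under 1000 bp and 33 are longer; 11 contain a RefSeq start of their gene, 1 contains only the 5′ end of the gene body, 28 lie elsewhere in the gene body and 33 lie outside it. In all, 7 regions are also assigned to another gene. A filter on low counts kept 72 of the 73.

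All cells came from C57BL/6 mice with the Foxp3-RFP reporter, whose red fluorescent protein marks cells that express Foxp3, the lineage factor of regulatory T cells (Tregs). The 4 groups of 2 libraries were RFP+ Tregs of male visceral adipose tissue (VAT), RFP+ Tregs of female VAT, RFP+ Tregs of male spleen, and RFP- CD4+ T cells of male VAT (below, CD4 cells). Each library holds cells pooled from 3 mice, and ages are not given in the sources used here. Nothing in the labels says that libraries of a group came from separate sorts, so p-values measure the spread between these libraries, which may be technical. In bulk chromatin, a smaller share of cells with an open region and less openness per cell cannot be told apart.

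TCF-1 (from Tcf7) and LEF-1 are sister HMG-box proteins that bind the same DNA core and can take up beta-catenin of the Wnt pathway. They are high in naive T cells, together with FOXO1, which keeps naive cells quiescent and drives Klf2 and Il7r. Activation and effector differentiation lower these genes, and Tregs of fat tissue are known as a differentiated, effector-like Treg population.

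Libraries held 5724685 to 15805270 counts in the regions used, and male VAT Treg replicate 1 had 5.63% of them in regions under 1000 bp, against 3.64% to 4.42% in the other 7 libraries. Regions of the Treg markers Foxp3, Ikzf2, Il2ra, Ctla4 and Tnfrsf18 summed to 439 to 640 CPM (counts scaled to library size) in male VAT Tregs, 559 to 568 CPM in female VAT Tregs, 453 to 476 CPM in spleen Tregs and 362 to 439.8 CPM in CD4 cells. The ranges of male VAT Tregs and CD4 cells overlapped at their ends. In male VAT Tregs over CD4 cells edgeR called 19 of the 53 Treg marker regions higher and 1 lower at adjusted p under 0.05. Among all regions 5.18% were higher and 2.51% lower. DESeq2 called 9 of the 53 higher and 0 lower, and limma-voom 12 and 1. Over the 8 libraries, T cell marker regions summed to 80.5 to 141 CPM, B cell ones to 92.9 to 135 and myeloid ones to 99.6 to 155. CD8 and NK marker regions summed to 156 to 172 CPM, adipocyte ones to 76.6 to 110, and stromal and endothelial ones to 129 to 145. The T cell sums did not stand above the others, and the lists hold different numbers of regions. Not every marker had a region: 4 of 4 T cell, 6 of 7 B cell and 4 of 7 myeloid genes did. So did 4 of 6 CD8 and NK, 4 of 5 adipocyte, and 5 of 6 stromal and endothelial genes. Those with 0 regions were Ms4a1, Lyz2, Csf1r, Adgre1, Cd8a, Ncr1, Lep and Pdgfrb. Male VAT Treg replicate 2 had the lowest summed CPM of all 8 libraries for the T cell, B cell, myeloid and adipocyte lists, at 80.5, 92.9, 99.6 and 76.6 CPM. The part of such cells in the values below was not tested.

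The promoters shown belong to starts whose region was called in at least 1 comparison, with the first Lef1 start, which was not called, beside them. Each is the 250 bases before a transcript start, from RefSeq (GRCm38.p6), all on the plus strand; capitals mark the TCF/LEF core CTTTGA, searched on both strands, so that a match on the minus strand reads TCAAAG. The first Lef1 start (chr3:131110047-131110296) and the internal Lef1 start (chr3:131156044-131156293) are shown side by side because only the internal start had a call, and Id3 (chr4:136143572-136143821) and Klf2 (chr8:72318812-72319061) follow.
Lef1 first start: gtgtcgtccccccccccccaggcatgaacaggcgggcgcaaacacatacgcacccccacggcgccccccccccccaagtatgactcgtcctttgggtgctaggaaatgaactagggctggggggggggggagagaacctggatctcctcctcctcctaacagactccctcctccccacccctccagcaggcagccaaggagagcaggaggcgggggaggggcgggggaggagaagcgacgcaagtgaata
Lef1 internal start: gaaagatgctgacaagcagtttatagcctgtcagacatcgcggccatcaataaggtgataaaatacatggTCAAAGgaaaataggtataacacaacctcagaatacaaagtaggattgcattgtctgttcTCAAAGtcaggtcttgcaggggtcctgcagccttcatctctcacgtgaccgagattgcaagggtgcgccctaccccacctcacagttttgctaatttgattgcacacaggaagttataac
Id3: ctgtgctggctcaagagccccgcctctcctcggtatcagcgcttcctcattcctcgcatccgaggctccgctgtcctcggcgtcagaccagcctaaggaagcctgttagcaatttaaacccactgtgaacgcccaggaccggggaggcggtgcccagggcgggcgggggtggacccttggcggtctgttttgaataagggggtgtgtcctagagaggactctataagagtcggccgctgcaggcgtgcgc
Klf2: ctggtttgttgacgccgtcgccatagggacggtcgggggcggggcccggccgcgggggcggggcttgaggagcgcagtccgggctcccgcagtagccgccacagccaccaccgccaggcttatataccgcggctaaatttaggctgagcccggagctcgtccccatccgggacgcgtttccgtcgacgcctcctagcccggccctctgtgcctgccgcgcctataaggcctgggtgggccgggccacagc
The internal Lef1 start has 2 such cores, from -180 to -175 and from -120 to -115 relative to the start, and the other 3 have none in this window. The core stands in 13.8% of 32851 promoters of this length, and in 2 of the 19 promoters of the 9 genes, the second being an inner start of Foxp1. The FOXO motif GTAAACA (3.17% of all promoters), the ETS motif CCGGAA (12%) and the RUNX motif TGTGGTT (4.4%) were searched in the same way on both strands: 0, 1 and 0 of the 19 held them, the 1 being an inner start of Tcf7. A match is a run of letters and was not tested as a binding site.

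Counts were compared in edgeR's quasi-likelihood test, fitted on all 45709 regions that passed the filter, and a region is called where its p, adjusted by Benjamini-Hochberg over all of them, was under 0.05. Each log2 fold change is given ± its standard error, n is 2 libraries in each group, and 3 planned comparisons share the male VAT Treg libraries and 2 the spleen ones. In male VAT Tregs over spleen Tregs, 5 of the 72 regions were called higher and 9 lower, beside 4.64% higher and 2.09% lower among all regions. In female VAT Tregs over spleen Tregs the counts were 2 higher (1.18% of all) and 0 lower (0.197%). In male over female VAT Tregs they were 2 higher (2.04%) and 0 lower (1.21%). In male VAT Tregs over CD4 cells they were 6 higher (5.18%) and 13 lower (2.51%).

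With TMM factors taken on short autosomal regions, the split in male VAT Tregs over spleen Tregs was 3 higher and 10 lower, and that over CD4 cells 2 higher and 15 lower. All regions shifted the same way under that scaling: 1260 were higher and 1493 lower over spleen Tregs, against 2121 and 957 with TMM on all regions, and 1166 were higher and 1917 lower over CD4 cells, against 2368 and 1146. Their median log2 fold change was -0.17 and -0.25 with short regions, against -0.01 and -0.02 with all regions. The count of 0 lower in edgeR stood beside 6 regions with unadjusted p below 0.05 in female VAT over spleen Tregs and 10 in male over female VAT Tregs, and DESeq2 and limma-voom also gave 0 in both. The median log2 fold change of the 72 regions was -0.11 in male VAT over spleen Tregs (all regions -0.01), -0.01 in female VAT over spleen Tregs (-0.00), -0.12 in male over female VAT Tregs (0.01) and -0.16 in male VAT Tregs over CD4 cells (-0.02). Of the 37 calls, 8 remained in each fit that left out 1 library: 1 in male VAT over spleen Tregs and 7 over CD4 cells. DESeq2 lost 8, 2, 2 and 7 of the calls in the 4 comparisons.

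Short and long regions had different backgrounds. In male VAT over spleen Tregs, 4 short members were higher and 2 lower (10.2% and 1.07% of all short regions), and 1 long member was higher and 7 lower (1.54% and 2.66% of all long ones). In female VAT over spleen Tregs, 1 short member (2.07%) and 1 long member (0.692%) were higher and 0 lower (0.287% and 0.147%). In male over female VAT Tregs, 2 short members were higher and 0 lower (4.68% and 0.733%), and 0 long members were called in either direction (0.572% and 1.48%). In male VAT Tregs over CD4 cells, 4 short members were higher and 6 lower (10.3% and 3.73%), and 2 long ones higher and 7 lower (2.35% and 1.82%). In the comparisons with CD4 cells added after the data were seen, 2 members were higher and 8 lower in female VAT Tregs (2.29% and 1.54% of all regions), and 1 was higher and 8 lower in spleen Tregs (1.89% and 2.07%).

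**Figure D1:**
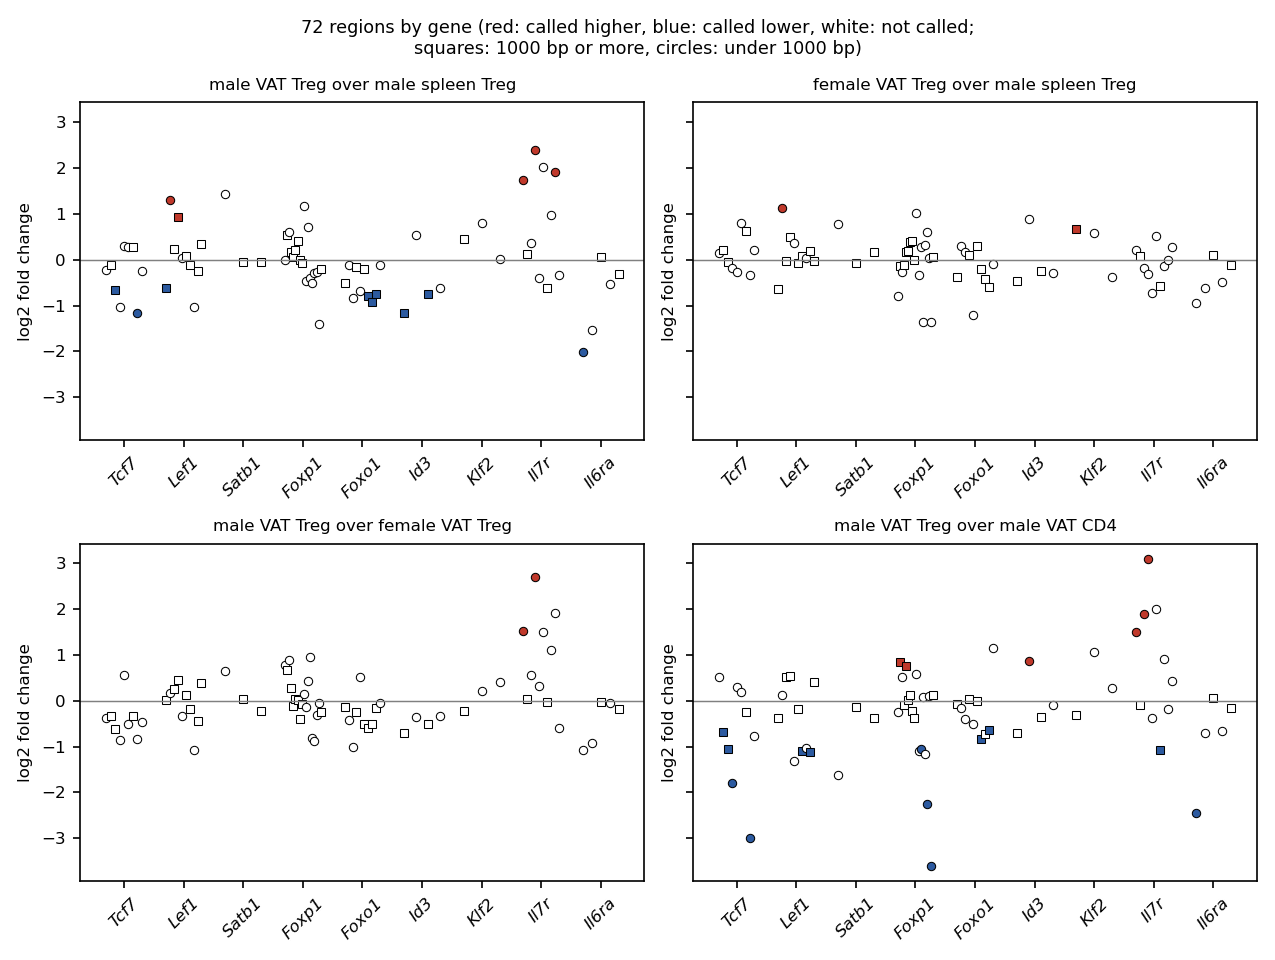
Log2 fold change (y axis) of the 72 regions, set out by gene along the x axis, in the 4 comparisons. Filled symbols are called, red higher and blue lower. Il7r holds 3 of the 6 regions called higher in male VAT Tregs over CD4 cells, and Tcf7 4 of the 13 called lower.

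Of the 12 regions at a start or 5′ end, 1 was called lower in male VAT over spleen Tregs (Id3), 1 higher in female VAT over spleen Tregs (Klf2) and 2 lower in male VAT Tregs over CD4 cells (Tcf7 and Lef1), and 0 were called in male over female VAT Tregs. The other 60 regions held the other calls, 5 higher and 8 lower, 1 higher, 2 higher, and 6 higher and 11 lower in the same order of comparisons. Per kilobase, the start region of Klf2 was the most open of the 11 in male VAT Tregs, at 10.0 CPM per kb, and that of Id3 the least, at 2.18.

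Counts were also summed over each gene's regions and tested among 19232 genes. These sums are given in gene CPM, scaled to the total over all gene sums. A region assigned to several genes counts once for each, so that total is larger, and a gene CPM cannot be set beside the CPM of a region. Tcf7 was lower in male VAT Tregs than in CD4 cells, Id3 lower in male VAT than in spleen Tregs, and Klf2 higher in female VAT than in spleen Tregs. Among all gene sums, 3.06% were higher and 1.15% lower in male VAT over spleen Tregs, 0.957% and 0.052% in female VAT over spleen Tregs, 2.9% and 2.84% in male over female VAT Tregs, and 2.44% and 1.23% in male VAT Tregs over CD4 cells. In the added comparisons they were 1.46% and 0.962% in female VAT Tregs over CD4 cells, where no sum of the 9 genes was called, and 0.51% and 0.998% in spleen Tregs over CD4 cells, where Tcf7 and Klf2 were lower.

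**Figure D2:**
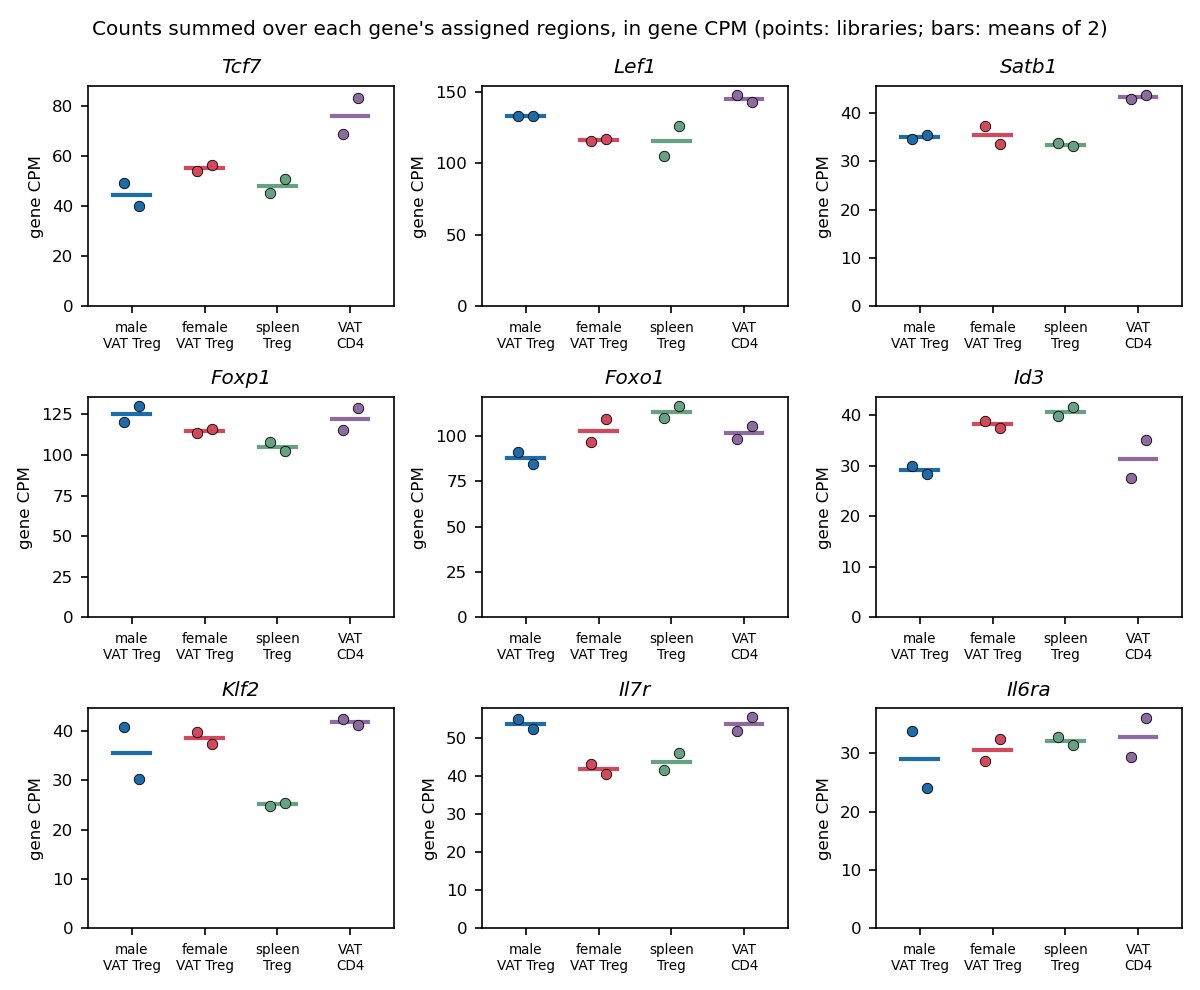
Counts summed over the regions of each gene, in gene CPM (y axis, from 0), with a point for each of the 2 libraries of a group and a bar at their mean. Tcf7 stands at 68.6 and 83.1 gene CPM in CD4 cells, above all 6 Treg libraries, and Klf2 is lowest in spleen Tregs at 24.7 and 25.5 gene CPM.

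A distal upstream region of Tcf7 was less open in all 3 Treg groups than in CD4 cells, and the sum over the gene was lower in male VAT Tregs. The gene's sum was 49.1 and 39.8 gene CPM in male VAT Tregs, 54.0 and 56.3 gene CPM in female VAT Tregs, 45.1 and 50.6 gene CPM in spleen Tregs, and 68.6 and 83.1 gene CPM in CD4 cells. Both CD4 libraries stood above the 6 Treg libraries. Male VAT Tregs fell by 0.77 ± 0.14 on the log2 scale against CD4 cells (edgeR adjusted p = 0.00255). Without CD4 replicate 2 that call was lost, at 0.0793 for a log2 fold change of -0.62. In comparisons added after the data were seen, the sum was lower in spleen Tregs than in CD4 cells (-0.66 ± 0.14, edgeR adjusted p = 0.0159), a call lost without either spleen replicate or CD4 replicate 2 (0.236, 0.114 and 0.195). In female VAT Tregs over CD4 cells the value was -0.46 ± 0.14 and was not called (0.0826). In order of level, CD4 cells led, and female VAT, spleen and male VAT Tregs followed without a call between neighbours.

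The region chr11:52314131-52314602, 31.1 kb upstream of the nearest Tcf7 start and inside the lncRNA gene Gm30217 on the RefSeq annotation, carried the largest Tcf7 difference. It held 2.72 and 1.17 CPM in male VAT Tregs, 3.79 and 3.64 CPM in female VAT Tregs, 4.12 and 5.08 CPM in spleen Tregs, and 12.9 and 19.9 CPM in CD4 cells. The CD4 libraries lay far above all Treg libraries, and male VAT Tregs were the lowest group without overlap. Against CD4 cells the log2 fold change was -2.99 ± 0.31 in male VAT Tregs (edgeR adjusted p = 3.28e-16), -2.15 ± 0.30 in female VAT Tregs (5.62e-09) and -1.82 ± 0.29 in spleen Tregs (2.78e-07). These 3 calls remained in every fit without 1 library and under every other setting run. In male VAT over spleen Tregs the region also fell, by 1.17 ± 0.33 (0.0111), but not without replicate 2 of male VAT Tregs (-0.78, 0.204) or of spleen Tregs (0.203), and without male VAT Treg replicate 1 the value was -1.98. In female VAT over spleen Tregs it was -0.33 ± 0.32.

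Inside the Tcf7 gene body, 2 wide regions were also lower in male VAT Tregs than in CD4 cells. The region chr11:52273675-52277432 held 11.2 and 8.74 CPM in male VAT Tregs, 13.6 and 17.1 CPM in female VAT Tregs, 14.7 and 17.0 CPM in spleen Tregs, and 18.9 and 22.5 CPM in CD4 cells. It was lower in male VAT Tregs than in CD4 cells (-1.05 ± 0.22, edgeR adjusted p = 0.000192), also without any 1 library. Against spleen Tregs it was -0.66 ± 0.22 (0.0378), a call lost without male VAT Treg replicate 2 (0.211), either spleen replicate (0.0823 and 0.334) or either female VAT replicate (0.0641 and 0.0597). The region chr11:52264524-52270139 gave -0.68 ± 0.19 in male VAT Tregs over CD4 cells (0.0113), but was not called without CD4 replicate 2 (0.248).

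At the 5′ end of Tcf7, the 77 bp region chr11:52283331-52283408 held 0.950 and 0.853 CPM in male VAT Tregs against 1.35 and 4.76 CPM in CD4 cells. Its log2 fold change was -1.78 ± 0.57 (edgeR adjusted p = 0.0292), and without CD4 replicate 2 it was -0.57 (0.842). It was not called without either male VAT Treg replicate (0.145 and 0.0875). The other 5 Tcf7 regions, among them a wide one 15.2 kb upstream with 18.0 and 9.92 CPM in male VAT Tregs and 15.4 and 18.0 CPM in CD4 cells, were not called in the 4 planned comparisons. In male over female VAT Tregs, edgeR called 0 of the 9 Tcf7 regions, with 2 lower with unadjusted p below 0.05, and DESeq2 and limma-voom also called 0; 8 of the 9 log2 fold changes were below 0, with a median of -0.46.

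Lef1, which encodes LEF-1, differed along its locus: 2 regions in the gene were less open in Tregs than in CD4 cells, while 2 upstream regions were more open in male VAT than in spleen Tregs. The gene's sum did not show this, at 133.3 and 132.9 gene CPM in male VAT Tregs, 115.2 and 117.1 gene CPM in female VAT Tregs, 105.1 and 126.2 gene CPM in spleen Tregs, and 147 and 142 gene CPM in CD4 cells. No comparison of the sum was called in edgeR. The values ran from -0.12 ± 0.14 in male VAT Tregs over CD4 cells to 0.20 ± 0.13 in male VAT over spleen Tregs in the 4 planned comparisons, and the added ones gave -0.32 ± 0.14 in both female VAT Tregs and spleen Tregs over CD4 cells (edgeR adjusted p = 0.258 and 0.32).

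The region of the internal start, chr3:131155011-131160268, whose sequence with 2 TCF/LEF cores is printed above, held 17.2 and 17.1 CPM in male VAT Tregs, 23.0 and 23.7 CPM in female VAT Tregs, 18.9 and 21.6 CPM in spleen Tregs, and 35.6 and 38.8 CPM in CD4 cells. The CD4 libraries were above every Treg library. The log2 fold change against CD4 cells was -1.12 ± 0.20 in male VAT Tregs (edgeR adjusted p = 3.55e-06), which remained without any 1 library. It was -0.67 ± 0.20 in female VAT Tregs (0.0257) and -0.87 ± 0.20 in spleen Tregs (0.00127). The female VAT call was lost without any 1 of the female VAT or CD4 libraries (0.091 to 0.271) and the spleen call without spleen replicate 1 (0.0794). In human cells LEF1 is known to have an inner promoter that gives a shorter protein without beta-catenin binding; whether this start is its counterpart was not tested.

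The first start, chr3:131109869-131114532, was close between groups, with 30.0 and 26.0 CPM in male VAT Tregs, 25.3 and 25.8 CPM in female VAT Tregs, 25.2 and 27.9 CPM in spleen Tregs, and 30.0 and 33.5 CPM in CD4 cells. It was not called in any comparison, at -0.18 ± 0.19 in male VAT Tregs over CD4 cells. Per kilobase, the first start held 6.00 CPM in male VAT Tregs against 6.81 in CD4 cells, and the internal start 3.26 against 7.08. The difference between the 2 starts was not tested. A region inside the gene, chr3:131116819-131119096, lies 4.0 kb downstream of its nearest start. It held 9.12 and 11.4 CPM in male VAT Tregs, 12.1 and 11.0 CPM in female VAT Tregs, 12.4 and 9.85 CPM in spleen Tregs, and 18.9 and 24.7 CPM in CD4 cells. Male VAT Tregs were lower than CD4 cells (-1.11 ± 0.22, edgeR adjusted p = 8.11e-05), also without any 1 library.

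Upstream of Lef1, 3 regions were called between male VAT and spleen Tregs. At 96.0 kb, chr3:131014063-131014312 held 7.79 and 5.22 CPM in male VAT Tregs, 5.59 and 6.22 CPM in female VAT Tregs, 1.09 and 3.76 CPM in spleen Tregs, and 7.13 and 5.19 CPM in CD4 cells. The spleen libraries were the lowest and lay apart from each other. The log2 fold change over spleen Tregs was 1.30 ± 0.32 in male VAT Tregs (edgeR adjusted p = 0.00238) and 1.14 ± 0.33 in female VAT Tregs (0.0477). Without spleen replicate 1 these were 0.81 (0.269) and 0.64 (0.856), and without spleen replicate 2 they were 2.59 and 2.42. The male call was also lost without male VAT Treg replicate 1 (0.15), and the female one without female VAT replicate 1 (0.254) or 2 (0.396).

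At 51.1 kb upstream of Lef1, chr3:131055866-131059185 held 24.96 and 17.8 CPM in male VAT Tregs, 16.8 and 14.8 CPM in female VAT Tregs, 9.21 and 12.9 CPM in spleen Tregs, and 15.8 and 13.8 CPM in CD4 cells. Male VAT Tregs were the highest group without overlap and rose by 0.94 ± 0.21 over spleen Tregs (edgeR adjusted p = 0.000602), but not without replicate 1 of either group (both 0.103). At 161.0 kb, chr3:130945585-130949332 ran the other way, with 20.3 and 21.3 CPM in male VAT Tregs against 28.0 and 35.2 CPM in spleen Tregs (-0.61 ± 0.19, 0.0282). That call did not hold without replicate 1 of male VAT Tregs (0.103), spleen replicate 2 (0.429) or either female VAT replicate (0.0572 and 0.0537). Female VAT Tregs, at 19.3 and 21.9 CPM, gave -0.63 ± 0.19 over spleen Tregs, which was not called (0.0787).

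**Figure D3:**
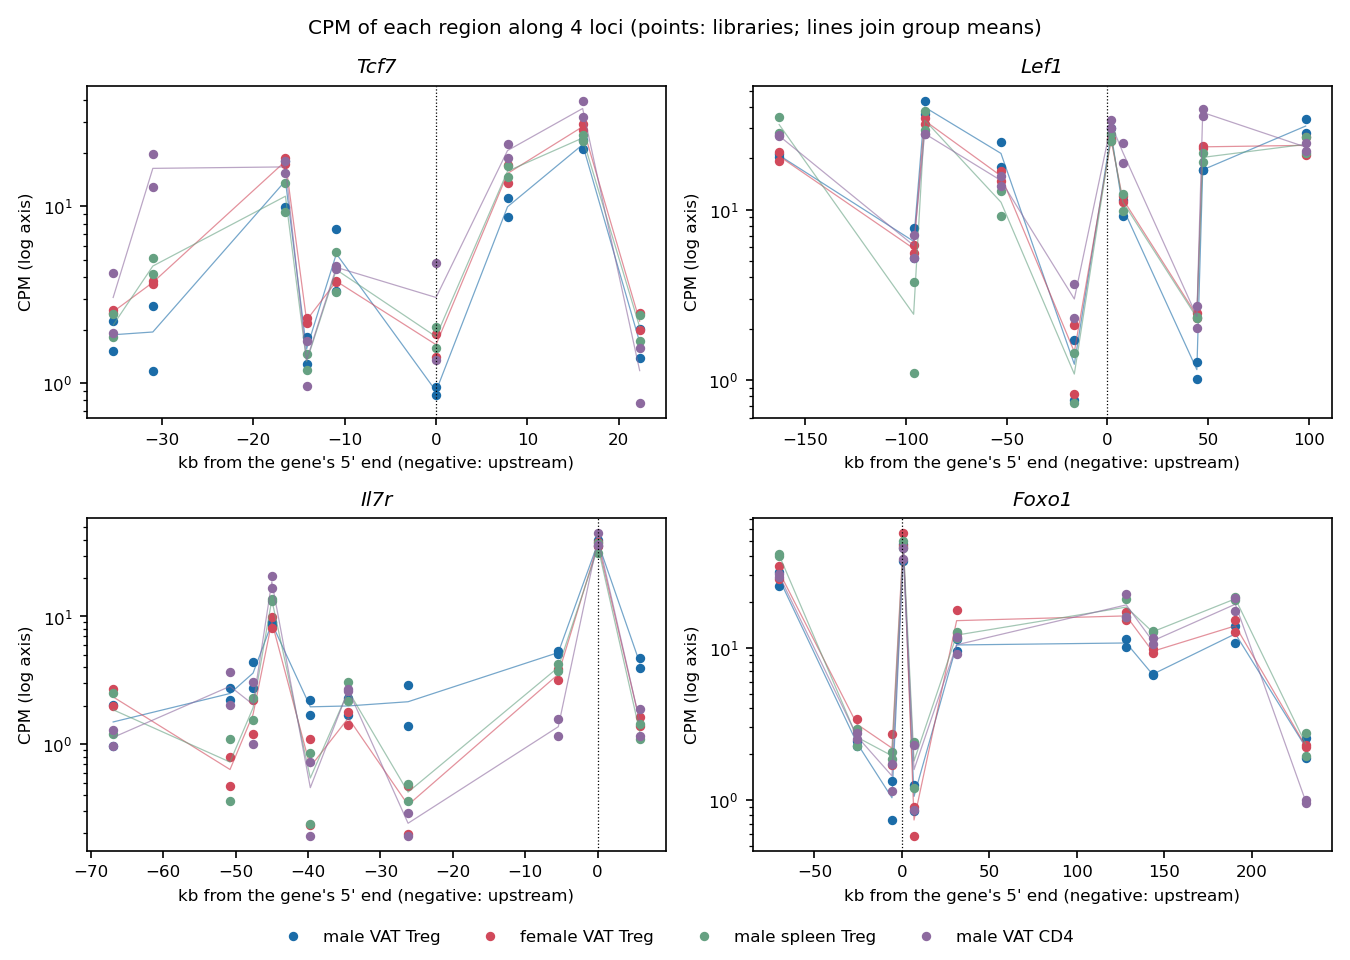
CPM (log axis) of each region of Tcf7, Lef1, Il7r and Foxo1 against its distance from the 5′ end of the gene in kb, with a point per library and lines joining group means. CD4 cells stand out at the distal upstream Tcf7 region (12.9 and 19.9 CPM) and at the internal Lef1 start, and male VAT Tregs at short Il7r regions.

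Satb1 encodes a chromatin organiser that is high in thymocytes and naive T cells, and its starts were not called in any comparison. The region chr17:51811227-51815380 held 19.5 to 21.2 CPM in male VAT Tregs, 19.5 to 20.1 CPM in female VAT Tregs, 20.1 to 21.7 CPM in spleen Tregs and 20.8 to 23.7 CPM in CD4 cells. Of its 3 regions edgeR called 0 in the 4 planned comparisons. At unadjusted p under 0.05 there was 1 higher in male VAT over spleen Tregs and 1 lower in male VAT Tregs over CD4 cells, and DESeq2 and limma-voom called 0 in both. That 1 region is short, chr17:51762623-51762720, with 1.39 and 0.960 CPM in male VAT Tregs, 0.698 and 0.821 CPM in female VAT Tregs, 0.364 and 0.478 CPM in spleen Tregs, and 5.20 and 2.31 CPM in CD4 cells. In the added comparisons it was lower in female VAT Tregs (-2.27 ± 0.67, edgeR adjusted p = 0.0286) and spleen Tregs (-3.05 ± 0.70, 0.00156) than in CD4 cells. Without CD4 replicate 1 neither call remained (0.702 and 0.302), nor the female one without female VAT replicate 1 (0.31) or 2 (0.244).

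Foxp1, a forkhead factor that holds naive T cells in quiescence, had 18 regions, most of them without a call. Of these, 0 were called in the 3 comparisons among Tregs by edgeR, with 4, 2 and 2 higher and 0, 1 and 0 lower with unadjusted p below 0.05 in male VAT over spleen, female VAT over spleen and male over female VAT Tregs. DESeq2 called 0 in all 3 and limma-voom 1 higher in male VAT over spleen Tregs. In male VAT Tregs over CD4 cells 2 were higher and 3 lower. The gene's sum was 120.2 and 130.4 gene CPM in male VAT Tregs, 113 and 116 gene CPM in female VAT Tregs, 107.7 and 102.4 gene CPM in spleen Tregs and 115 and 129 gene CPM in CD4 cells.

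The short region chr6:99309533-99309820 inside Foxp1 was low in all Tregs, with 4.94 and 6.08 CPM in male VAT Tregs, 3.89 and 4.22 CPM in female VAT Tregs, 3.39 and 3.28 CPM in spleen Tregs, and 11.0 and 11.5 CPM in CD4 cells. Against CD4 cells it was -1.04 ± 0.29 in male VAT Tregs (edgeR adjusted p = 0.00946), -1.47 ± 0.31 in female VAT Tregs (0.000422) and -1.76 ± 0.31 in spleen Tregs (8.72e-06). The female VAT and spleen calls remained without any 1 library. For male VAT Tregs the adjusted p was 0.142 without replicate 1 of that group, and 0.051 and 0.0994 without CD4 replicate 1 or 2. In other short regions, chr6:99486406-99486485 held 0.443 and 0 CPM in male VAT Tregs and 0.0997 and 0.469 CPM in female VAT Tregs. Spleen Tregs held 0.727 and 0.717 CPM there, and CD4 cells 4.43 and 2.31 CPM. All Treg libraries thus lay below both CD4 libraries. Its fitted log2 fold change in male VAT Tregs over CD4 cells was -3.59 ± 0.81 (edgeR adjusted p = 0.000495). It was not called without male VAT Treg replicate 2 (0.0576) or CD4 replicate 1 (0.117), and the fit without male VAT Treg replicate 1, which leaves a library with 0 counts, gave -7.96. The third, chr6:99389108-99389185, gave -2.24 ± 0.64 (0.0117), and -1.16 (0.659) without CD4 replicate 2. It was not called without either male VAT Treg replicate (0.0563 and 0.127).

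The 2 regions of Foxp1 called higher in male VAT Tregs than in CD4 cells are wide and lie in the gene body. At chr6:98991126-98994781 male VAT Tregs held 21.6 and 20.3 CPM, female VAT Tregs 12.9 and 13.5, spleen Tregs 15.6 and 13.6, and CD4 cells 8.47 and 14.6. Male VAT Tregs were highest without overlap, at 0.84 ± 0.23 over CD4 cells (edgeR adjusted p = 0.00583); without CD4 replicate 1 the value was 0.52 (0.373), without CD4 replicate 2 it was 1.30, and without male VAT Treg replicate 1 the call was lost (0.0587). At chr6:99048749-99052554 all Treg libraries, from 15.8 to 18.4 CPM, stood above both CD4 libraries, at 9.44 and 10.2 CPM. Female VAT Tregs held 17.3 and 18.4 CPM, a log2 fold change of 0.85 over CD4 cells in the comparison added later. The log2 fold change of male VAT Tregs was 0.75 ± 0.23 (0.0233), lost without any 1 male VAT Treg or CD4 library (0.0511 to 0.184).

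Foxo1, the forkhead factor that sustains Klf2 and Il7r expression in resting T cells, was lower in male VAT than in spleen Tregs at 3 wide regions beyond its 3′ end. The gene's sum was not called in that comparison, at -0.36 ± 0.13 (edgeR adjusted p = 0.115). All 10 Foxo1 regions had a log2 fold change below 0 in that comparison, with a median of -0.59 beside -0.01 over all regions, and the other 7 were not called. The 3 lie 44.6, 59.7 and 106.9 kb past the gene body, and the table assigns them to Foxo1 alone.

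The Foxo1 region chr3:52409781-52413216 held 6.65 and 6.72 CPM in male VAT Tregs, 9.18 and 9.74 CPM in female VAT Tregs, 12.6 and 12.8 CPM in spleen Tregs, and 10.6 and 11.5 CPM in CD4 cells. The groups did not overlap, with male VAT Tregs lowest and spleen Tregs highest. Male VAT over spleen Tregs gave -0.93 ± 0.24 (edgeR adjusted p = 0.0046), and the adjusted p was 0.0518 without replicate 1 of male VAT Tregs and 0.073 without spleen replicate 2. At chr3:52394662-52398313 the values were 11.3 and 10.1 CPM in male VAT Tregs, 17.1 and 15.3 CPM in female VAT Tregs, 16.0 and 20.9 CPM in spleen Tregs, and 15.8 and 22.4 CPM in CD4 cells. Male VAT Tregs were again lowest, at -0.79 ± 0.21 over spleen Tregs (0.00682) and -0.83 ± 0.22 over CD4 cells (0.00514). These calls were lost without spleen replicate 2 (0.292) and without CD4 replicate 2 (-0.55, 0.313).

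The most distal of the 3 Foxo1 regions, chr3:52456960-52460687, was -0.75 ± 0.21 in male VAT over spleen Tregs (edgeR adjusted p = 0.00999) and -0.64 ± 0.22 in male VAT Tregs over CD4 cells (0.0481). The first call did not hold without replicate 2 of male VAT Tregs (0.106) or either spleen replicate (0.0947 and 0.0798), and the second in 7 of the 8 fits that left out a library (0.0607 to 0.397). The start region of Foxo1 showed no call, with 48.2 and 37.2 CPM in male VAT Tregs, 46.2 and 56.1 CPM in female VAT Tregs, 45.3 and 49.9 CPM in spleen Tregs, and 37.9 and 45.3 CPM in CD4 cells. In male over female VAT Tregs, edgeR called 0 of the 10, with 3 lower with unadjusted p below 0.05; DESeq2 and limma-voom called 0.

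Id3 encodes an inhibitor of E proteins that is high in naive and memory-like T cells and in resting Tregs, and its chromatin was less open in male VAT than in spleen Tregs. The sum over 4 regions was 29.8 and 28.4 gene CPM in male VAT Tregs, 38.9 and 37.4 gene CPM in female VAT Tregs, 39.7 and 41.6 gene CPM in spleen Tregs, and 27.5 and 35.1 gene CPM in CD4 cells. Male VAT Tregs lay below female VAT and spleen Tregs without overlap. The sum fell by 0.48 ± 0.13 in male VAT over spleen Tregs (edgeR adjusted p = 0.0485). That call did not hold without either spleen replicate (0.184 and 0.249) or either female VAT replicate (0.0948 and 0.103), and with library size alone (0.0904). Male over female VAT Tregs gave -0.39 ± 0.13 and was not called (0.0887).

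The wide Id3 region with the start, chr4:136139879-136147708, held 17.4 and 16.8 CPM in male VAT Tregs, 23.5 and 25.5 CPM in female VAT Tregs, 30.3 and 27.7 CPM in spleen Tregs, and 20.4 and 23.4 CPM in CD4 cells. Male VAT Tregs were the lowest and spleen Tregs the highest group without overlap, at -0.76 ± 0.20 (edgeR adjusted p = 0.00427), lost without spleen replicate 1 (0.0886). The region also covers the lncRNA gene Gm42329. A region 42.1 kb upstream, chr4:136099465-136101716, held 4.50 and 3.20 CPM in male VAT Tregs, 5.98 and 6.92 CPM in female VAT Tregs, 7.88 and 9.61 CPM in spleen Tregs, and 5.39 and 7.21 CPM in CD4 cells (male VAT over spleen Tregs -1.17 ± 0.28, 0.00205, lost without spleen replicate 2, 0.112).

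A second upstream Id3 region, chr4:136106773-136107209, ran the other way. It held 9.63 and 8.21 CPM in male VAT Tregs, 12.2 and 10.6 CPM in female VAT Tregs, 5.33 and 6.75 CPM in spleen Tregs, and 2.50 and 6.92 CPM in CD4 cells, so that both VAT Treg groups stood above the others. Over CD4 cells it was 0.87 ± 0.29 in male VAT Tregs (edgeR adjusted p = 0.0429) and 1.21 ± 0.29 in female VAT Tregs (0.00317). Without CD4 replicate 1 these were 0.37 (0.741) and 0.72 (0.439), and without CD4 replicate 2 they were 1.84 and 2.18. The male call was also lost without male VAT Treg replicate 1 (0.269) or either female VAT replicate (0.0602 and 0.057), and the female one without female VAT replicate 1 (0.102). Over spleen Tregs, female VAT Tregs gave 0.89 ± 0.26, just short of a call (0.051).

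Klf2 encodes the factor that drives S1pr1 and with it recirculation through lymphoid organs, and its start was least open in spleen Tregs. The region chr8:72316892-72321113 held 51.0 and 33.6 CPM in male VAT Tregs, 51.1 and 48.5 CPM in female VAT Tregs, 30.3 and 31.9 CPM in spleen Tregs, and 52.6 and 52.9 CPM in CD4 cells. Both spleen libraries lay below the 6 VAT libraries, and the male VAT Treg libraries lay far apart. Female VAT Tregs rose by 0.68 ± 0.18 over spleen Tregs (edgeR adjusted p = 0.0208). That call did not hold without any 1 female VAT or spleen library (0.187 to 0.405), with library size alone (0.0809) and in DESeq2. Male VAT over spleen Tregs gave 0.45 ± 0.18 (0.12) and spleen Tregs over CD4 cells -0.76 ± 0.18 (0.00334). This last call did not hold without spleen replicate 1 (0.0947) or 2 (0.0644).

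Summed over 3 Klf2 regions, female VAT Tregs held 39.7 and 37.2 gene CPM and spleen Tregs 24.7 and 25.5 gene CPM (0.61 ± 0.14, edgeR adjusted p = 0.0458), a call lost without any 1 female VAT, spleen or CD4 library (0.0686 to 0.668) and with library size alone (0.258). Male VAT Tregs, at 40.7 and 30.2 gene CPM, were at 0.51 ± 0.14 over spleen Tregs (0.051). The sum in CD4 cells was 42.4 and 41.3 gene CPM, and spleen Tregs were lower than CD4 cells (-0.73 ± 0.15, 0.0136), a call lost without any 1 spleen or CD4 library (0.0895 to 0.146). S1pr1 is given with the companion genes.

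Il7r encodes the receptor chain for interleukin-7, the survival cytokine of naive and memory T cells. Its start region did not separate the groups, while several short regions around it were higher in male VAT Tregs and 1 wide upstream region was lower in both VAT Treg groups than in CD4 cells. The start region chr15:9525090-9534663 held 39.7 and 35.9 CPM in male VAT Tregs, 38.2 and 35.9 CPM in female VAT Tregs, 31.6 and 37.8 CPM in spleen Tregs, and 36.2 and 44.7 CPM in CD4 cells. Its log2 fold changes lay between -0.22 ± 0.19 in spleen Tregs over CD4 cells and 0.12 ± 0.18 in male VAT over spleen Tregs over all 6 comparisons. The gene's sum was not called in any comparison. For male VAT Tregs it was 0.29 ± 0.12 over spleen Tregs, 0.36 ± 0.12 over female VAT Tregs and 0.00 ± 0.12 over CD4 cells (edgeR adjusted p = 0.172, 0.0788 and 0.996). Of the 10 Il7r regions tested, 3 were called higher in male VAT over spleen Tregs, 2 in male over female VAT Tregs and 3 in male VAT Tregs over CD4 cells. All are short, and among all short regions 10.2%, 4.68% and 10.3% were called higher in these comparisons. With TMM factors taken on short regions, neither call in male over female VAT Tregs remained (0.082 and 0.0607).

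Inside the gene, 5.6 kb from the start, the Il7r region chr15:9524022-9524239 held 4.75 and 3.95 CPM in male VAT Tregs, 1.40 and 1.64 CPM in female VAT Tregs, 1.09 and 1.43 CPM in spleen Tregs, and 1.16 and 1.88 CPM in CD4 cells. Both male VAT Treg libraries stood above all others. The log2 fold change of male VAT Tregs was 1.75 ± 0.46 over spleen Tregs (edgeR adjusted p = 0.00561), 1.52 ± 0.47 over female VAT Tregs (0.0413) and 1.49 ± 0.50 over CD4 cells (0.0421). Without male VAT Treg replicate 1 none of the 3 remained (0.107, 0.245 and 0.278). Over spleen Tregs the call was also lost without spleen replicate 1 (0.0702), over female VAT Tregs without male VAT Treg replicate 2 (0.0602) or female VAT replicate 1 (0.409) or 2 (0.267), and over CD4 cells in 6 of the 8 fits in all (0.053 to 0.342).

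At 26.2 kb upstream of Il7r, chr15:9556034-9556211 held 2.91 and 1.39 CPM in male VAT Tregs and 0.193 to 0.485 CPM in the 6 other libraries. It was called higher in male VAT Tregs over spleen Tregs (2.40 ± 0.75, edgeR adjusted p = 0.0271), female VAT Tregs (2.71 ± 0.81, 0.0324) and CD4 cells (3.10 ± 0.93, 0.0178). Counts were low: 59 in male VAT Tregs against 3 in CD4 cells, a ratio of 9.48 after scaling (95% interval 3.09 to 47.3, counting error only). Without male VAT Treg replicate 1 these values were 1.73 (0.408), 2.04 (0.432) and 2.43 (0.371), and the first call was lost in 7 of the 8 fits, the second in 6 (0.053 to 0.527) and the third also without CD4 replicate 1 (0.239) or 2 (0.183). The neighbouring region chr15:9570121-9570272, which failed the filter, held 42 and 6 counts in male VAT Tregs, 2 and 4 counts in female VAT Tregs, 3 and 8 counts in spleen Tregs, and 4 and 7 counts in CD4 cells. Here replicate 1 of male VAT Tregs stood alone.

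Among the Il7r regions higher in male VAT Tregs than in CD4 cells, the smallest adjusted p was at chr15:9535281-9535463, 5.4 kb upstream. It held 5.32 and 5.12 CPM in male VAT Tregs, 3.89 and 3.17 CPM in female VAT Tregs, 3.76 and 4.24 CPM in spleen Tregs, and 1.16 and 1.59 CPM in CD4 cells. All 6 Treg libraries were above both CD4 libraries. Male VAT Tregs gave 1.90 ± 0.45 (edgeR adjusted p = 0.00112), also without any 1 library, and spleen Tregs 1.52 ± 0.46 (0.0317), lost without any 1 spleen or CD4 library (0.0679 to 0.283). Female VAT Tregs gave 1.34 ± 0.47, which was not called (0.0942).

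In the opposite direction, the wide Il7r region chr15:9572997-9576880, 43.1 kb upstream, held 9.06 and 8.64 CPM in male VAT Tregs, 8.18 and 9.97 CPM in female VAT Tregs, 13.7 and 13.3 CPM in spleen Tregs, and 16.8 and 20.6 CPM in CD4 cells. The VAT Treg groups overlapped each other and lay below spleen Tregs, and all lay below CD4 cells. Against CD4 cells it was -1.08 ± 0.23 in male VAT Tregs (edgeR adjusted p = 0.000216), also without any 1 library, and -1.05 ± 0.24 in female VAT Tregs (0.00116), lost without female VAT replicate 1 (0.122) or CD4 replicate 2 (0.0724). Spleen Tregs over CD4 cells gave -0.48 ± 0.22 and were not called (0.268). At 50.8 kb, in the neighbouring gene Spef2, chr15:9580646-9580773 held 2.22 and 2.77 CPM in male VAT Tregs, 0.798 and 0.469 CPM in female VAT Tregs, 1.09 and 0.358 CPM in spleen Tregs, and 3.66 and 2.02 CPM in CD4 cells. Male VAT Tregs overlapped CD4 cells and lay above the other Tregs. The log2 fold change of male VAT over spleen Tregs was 1.92 ± 0.62 (0.0353), lost without either male VAT Treg (0.109 and 0.197) or CD4 replicate (0.0692 and 0.0505) and without spleen replicate 2 (1.17, 0.431).

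Il6ra encodes the interleukin-6 receptor chain, which is lost from T cells as they differentiate. It had 5 regions, and 1 of them, 4.9 kb past the 3′ end of the gene (chr3:89864241-89864401), was graded over all groups. It held 0.824 and 0.960 CPM in male VAT Tregs, 2.19 and 1.53 CPM in female VAT Tregs, 3.64 and 3.58 CPM in spleen Tregs, and 4.43 and 5.19 CPM in CD4 cells. No groups overlapped. Male VAT Tregs were -2.02 ± 0.48 against spleen Tregs (edgeR adjusted p = 0.00126) and -2.44 ± 0.49 against CD4 cells (6.04e-05), and both calls remained without any 1 library and under every other setting run. Male over female VAT Tregs gave -1.08 ± 0.52 and female VAT over spleen Tregs -0.94 ± 0.44, neither of them called (0.323 and 0.475). The start region chr3:89911066-89914755 was not called, with 15.2 and 9.60 CPM in male VAT Tregs, 13.1 and 15.6 CPM in female VAT Tregs, 16.6 and 14.7 CPM in spleen Tregs, and 12.3 and 15.6 CPM in CD4 cells. The gene's sum ranged from 24.1 to 36.0 gene CPM over the 8 libraries, and its groups overlapped in every comparison.

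**Figure D4:**
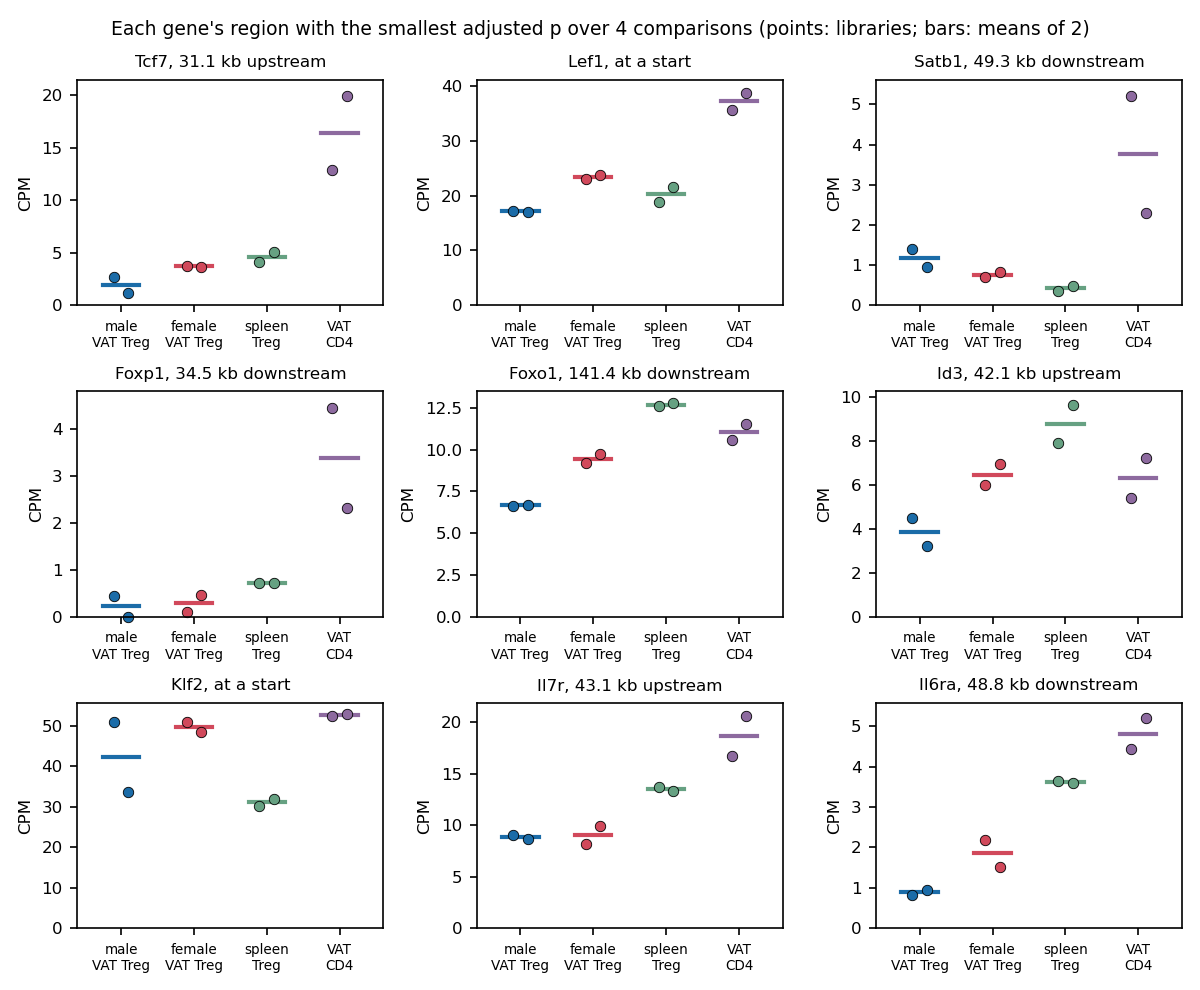
CPM (y axis, from 0) in each library at the region with the smallest adjusted p of each gene over the 4 comparisons, with a bar at the mean of the 2 libraries of a group. Male VAT Tregs are lowest at Il6ra (0.824 and 0.960 CPM) and CD4 cells highest at Tcf7 (12.9 and 19.9 CPM); the Satb1 region was not called in these comparisons.

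Genes of the same pathways were counted from companion lists. The share of all regions called higher and lower, to be read beside each count below, was 4.64% and 2.09% in male VAT over spleen Tregs, 1.18% and 0.197% in female VAT over spleen Tregs, 2.04% and 1.21% in male over female VAT Tregs, and 5.18% and 2.51% in male VAT Tregs over CD4 cells. Of 66 regions of Wnt and beta-catenin partners, 5 were higher and 1 lower in male VAT over spleen Tregs, 0 and 0 in female VAT over spleen Tregs, 1 and 2 in male over female VAT Tregs, and 2 and 1 in male VAT Tregs over CD4 cells. The 0 and 0 in edgeR stood beside 6 higher and 2 lower with unadjusted p below 0.05, with 0 and 0 in DESeq2 and 3 and 0 in limma-voom. The median log2 fold change of the list was -0.15, 0.03, -0.21 and -0.15 in the 4 comparisons, against -0.01, -0.00, 0.01 and -0.02 over all regions. At Tle3, a corepressor that binds TCF/LEF proteins, chr9:61589981-61590209 held 4.52 ± 0.0588 CPM in male VAT Tregs and 0.962 ± 0.271 in CD4 cells (SD, n = 2; log2 fold change 2.19 ± 0.50, edgeR adjusted p = 0.000702), also without any 1 library. The 1 region lower in that comparison, chr19:14695365-14695736 at Tle4, held 7.94 ± 0.385 against 13.8 ± 0.122 CPM (-0.80 ± 0.26, edgeR adjusted p = 0.0352). That call was lost in DESeq2 and without any 1 male VAT Treg or CD4 library.

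Of 161 regions of other naive and quiescence genes, 15 were higher and 5 lower in male VAT over spleen Tregs, 3 and 0 in female VAT over spleen Tregs, 5 and 2 in male over female VAT Tregs, and 15 and 20 in male VAT Tregs over CD4 cells. The medians were -0.02, 0.03, -0.04 and -0.09. Ccr7, the lymph node homing receptor, was lower in male VAT Tregs than in CD4 cells at chr11:99170987-99171169, with 1.75 ± 0.213 against 8.06 ± 1.05 CPM (SD, n = 2; log2 fold change -2.18 ± 0.40, edgeR adjusted p = 9.47e-06), also without any 1 library. S1pr1, the exit receptor that Klf2 drives, was lower at chr3:115793354-115793535, with 1.74 ± 0.402 in male VAT Tregs against 5.82 ± 1.30 CPM in CD4 cells (-1.75 ± 0.46, 0.00423), a call lost without replicate 1 of either group (0.107 and 0.13). Runx1, a runt-domain factor of T cells, was higher in male VAT Tregs at chr16:92793839-92794104, with 5.03 ± 2.74 CPM against 0.384 ± 0.12 in female VAT Tregs (3.72 ± 0.61, 1.11e-06), a call lost without male VAT Treg replicate 1 (0.0626).

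Among E proteins, the partners that Id3 holds in check, and the other Id proteins, 3 of 8 regions were lower and 0 higher in male VAT over spleen Tregs, and DESeq2 called 0; with unadjusted p below 0.05 edgeR had 6 lower and 0 higher. Male over female VAT Tregs had 1 lower, and the other 2 comparisons 0 by edgeR, DESeq2 and limma-voom, with 0 and 1 lower with unadjusted p below 0.05. The medians in the 4 comparisons were -0.64, 0.03, -0.50 and -0.26. Tcf3, the gene of E2A, gave -0.56 ± 0.18 in male VAT over spleen Tregs at chr10:80431941-80436088 (edgeR adjusted p = 0.038), lost without male VAT Treg replicate 2 (0.53), either spleen replicate (0.131 and 0.27) or either female VAT replicate (0.0711 and 0.0674). Of 56 regions of interleukin-7 and interleukin-6 signalling genes, 4 were higher and 3 lower in male VAT over spleen Tregs, 5 and 0 in female VAT over spleen Tregs, 0 and 1 in male over female VAT Tregs, and 3 and 7 in male VAT Tregs over CD4 cells. The medians were -0.01, -0.01, -0.13 and 0.02. Stat3, which carries the interleukin-6 signal, had a region at chr11:100934078-100934471 with 5.36 ± 1.55 CPM in male VAT Tregs and 3.90 ± 0.295 CPM in female VAT Tregs, against 0.330 ± 0.124 CPM in spleen Tregs (3.89 ± 0.52, 1.82e-10, and 3.41 ± 0.54, 5.66e-07), both also without any 1 library. In male VAT Tregs over CD4 cells that region was higher (2.04 ± 0.48, edgeR adjusted p = 0.000985). Another Stat3 region, chr11:100891759-100891836, was lower in the same comparison (-3.06 ± 0.69, 0.00048). Of 36 regions of PI3K and Foxo regulators, 1, 1, 0 and 1 were higher and 2, 1, 0 and 3 lower in the 4 comparisons; the 0 and 0 in male over female VAT Tregs stood beside 1 and 1 with unadjusted p below 0.05, and DESeq2 and limma-voom gave 0. The list medians were -0.06, -0.10, 0.03 and 0.00. At Sgk1, a kinase that phosphorylates FOXO1, chr10:21946682-21947257 rose in both VAT Treg groups over spleen Tregs, with 16.7 ± 2.69 CPM in male VAT Tregs, 15.7 ± 0.414 CPM in female VAT Tregs and 6.99 ± 1.61 CPM in spleen Tregs (1.30 ± 0.23, 4.9e-06, and 1.20 ± 0.24, 0.000209). The female value was not called without spleen replicate 2 (0.142). A second Sgk1 region, chr10:21911603-21911786, ran the other way in male VAT Tregs, with 0.977 ± 0.127 CPM against 3.32 ± 1.99 CPM in spleen Tregs (-1.70 ± 0.49, edgeR adjusted p = 0.0148, lost without replicate 1 of either group, 0.13 and 0.487) and 4.33 ± 1.22 CPM in CD4 cells (-2.17 ± 0.50, 0.000765, lost without CD4 replicate 2, 0.0826).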

How the data were processed

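The 8 ATAC-seq libraries form 4 groups of 2, taken from the sample labels. The authors deposited raw counts per region for all libraries in 1 table, with no normalization, and 1 file of log2 CPM values per library; the log2 values that the authors deposited were used for 1 alternative only. The submitters' processing notes list featureCounts, limma, HOMER 4.9 and Subread 1.6.2 without their roles, and the build is mm10 (GRCm38) per the labels' processing notes; how regions were called is not given in the sources used here. Of 62205 entries, 46624 are distinct regions, and repeated entries of a region hold the same counts. The 112 regions without a gene or on other sequence were left out, and 46512 used. No per-sample column was left unused. Each region keeps the gene the table assigns, so a region can lie far from its gene; gene bodies, starts and promoters came from RefSeq (GRCm38.p6), and 18560 of 19714 gene identifiers matched. Whether starts count from 0 or 1 is not stated.

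edgeR 4.0.16 (R 4.3.3) fitted all 8 libraries with TMM scaling, filterByExpr and a coefficient per group; Regions and gene sums were fitted apart, each with its own totals and TMM factors, which also scale CPM and gene CPM. With 2 libraries per group an exact permutation test cannot pass the threshold, so single values were tested only in the fits across all regions. DESeq2 1.42.0, limma 3.58.1, other scalings, no filter, a replicate block, 2 groups alone and the removal of each library were the alternatives. Counts of 5724685 to 15805270 per library limit the precision of short regions, and intervals cover counting error only. The edgeR script was checked on simulated counts.

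The 9 genes were named with every region. From each companion list, up to 4 called regions per direction and comparison could be named, by size of the log2 fold change, and a few of these are given. Likeness ranks genes of at least 20 CPM by Pearson's r of log2(CPM + 0.5) sums with Tcf7 or Lef1. Members and lists were chosen with earlier results of these data known. Comparisons of female VAT Tregs and of spleen Tregs with CD4 cells, and a crossed block, were added after the data were seen.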

Additional observations from a re-analysis of the deposited data

Results flagged for a closer look

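At 2 regions of Il7r, edgeR called a difference between male and female VAT Tregs in the test of that difference itself. DESeq2 called 0 Il7r regions higher in that comparison and limma-voom 1. Among all short regions, edgeR called 4.68% higher. With TMM factors taken on short regions, neither Il7r call remained. The region chr15:9524022-9524239 had a log2 fold change of 1.52 in male over female VAT Tregs, with 4.75 and 3.95 CPM in males and 1.40 and 1.64 CPM in females, and the region chr15:9556034-9556211 one of 2.71, with 2.91 and 1.39 CPM in males and 0.199 and 0.469 CPM in females. Both Il7r regions are short, and 5.63% of the counts of male VAT Treg replicate 1 were in short regions; its part in the difference was not tested, and without that library the values were 1.38 and 2.04 and neither was called.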

How the results depend on the processing

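With 2 libraries per group, most calls did not hold without some 1 library. Of the 40 calls in the 9 genes (37 regions and 3 gene sums), 8 remained under every alternative, all of them regions, and 0 reversed. Of the regions, 16 of 37 remained in every setting that kept all libraries. Among the 72 regions, the count in male VAT over spleen Tregs was 5 higher and 9 lower: with TMM on short autosomal regions 3 higher, with DESeq2 2 higher and 4 lower, with limma-trend on the deposited log2 values 3 higher, and without 1 library 0 to 6 higher and 2 to 9 lower. In female VAT over spleen Tregs it was 2 and 0: library size alone, TMM on short regions, DESeq2 and the replicate block gave 0 higher, limma-voom 1, the 2 groups alone 4 higher and 2 lower, and fits without 1 library 0 to 3 higher and 0 to 1 lower. In male over female VAT Tregs it was 2 and 0: library size alone, no filter, limma-voom and the replicate block gave 1 higher, TMM on short regions, DESeq2 and limma-trend 0, and fits without 1 library 0 to 3 higher and 0 to 2 lower. In male VAT Tregs over CD4 cells it was 6 and 13: TMM on short regions, DESeq2 and limma-voom gave 2 higher, and fits without 1 library 1 to 6 higher and 7 to 12 lower.

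Of gene sums, male VAT over spleen Tregs had 0 higher and 1 lower: DESeq2 size factors gave 1 higher, and library size alone, the DESeq2 test and the replicate block 0 lower, with 0 to 1 in either direction without 1 library. Female VAT over spleen Tregs had 1 higher, and library size alone and the replicate block gave 0, as did some fits without 1 library (0 to 1). Male over female VAT Tregs had 0, and 0 to 2 lower without 1 library. Male VAT Tregs over CD4 cells had 1 lower, and 0 to 1 without 1 library. Whether replicate numbers pair the libraries is not known. The correlation of same-numbered deviations was -0.146 to 0.0666 over 6 pairs of groups. It cannot decide this, because counting noise in regions with few reads also holds it near 0. The replicate block changed calls as given and the crossed block for male VAT Tregs over CD4 cells gave 7 higher and 12 lower. The cause of these changes was not tested. Fits on sums were not run with TMM on short regions, limma or 2 groups alone. Of the 68 companion regions named, 11 remained without any 1 library. Depth limits short regions, and those at 5 CPM or less rest on few reads.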

Other observations

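Over the 8 libraries, the gene sums most like Tcf7 among 10849 genes were Mapk12 (Pearson r = 0.98), Nsmce1 (0.96), C430002N11Rik (0.96), Ccdc63 (0.95) and Leprotl1 (0.95), and those most like Lef1 were Gm16793 (0.98), 2010003O02Rik (0.97), 1700125G22Rik (0.97), Akr1b3 (0.97) and 4921531C22Rik (0.97). These values are descriptions: the libraries form 4 groups, and the genes were picked for their r. Without the 2 libraries farthest from the median sum, r ran from 0.859 to 0.946 for Tcf7 and from 0.905 to 0.984 for Lef1. For Tcf7 those libraries were both of CD4 cells.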
